A study of Mus musculus with 5 samples.

Results

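BMN alone was compared with Control, using 2 of the 5 RNA-seq libraries of a study of LLC, a mouse Lewis lung carcinoma line. BMN is BMN673 (talazoparib), an inhibitor of the PARP enzymes, and Control is the group without drug. In the paper's therapeutic study, the group without drug was injected with saline. The paper's methods describe subcutaneous LLC tumors in the flank of female C57BL/6 mice, taken one day after the last dose. The labels describe LLC cells kept in culture and treated for 72 h, name the tissue as lung and give no dose for BMN. The paper describes repeated intravenous injections, and a supplementary caption names a BMN dose in mg/kg for its RNA-seq comparisons. No genotype, transgene or number of pooled tumors is given for either group.

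The members were the gene symbols listed in both the table that holds BMN and the table that holds Control, which gave 13979 of the 16155 symbols of the first and of the 20236 of the second. Of these, 13704 had a value above 0 in at least 1 of the 2 libraries. The values are FPKM, fragments per transcript length and library size, and each column was scaled to sum to 1000000 over the shared symbols. Every level below is such a scaled FPKM value, and every log2 ratio is that of BMN + 1 over Control + 1. With 1 library per group there was no replicate check, so no p-value was computed and a gene was called by a 2-fold difference alone.

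PARP enzymes add ADP-ribose to proteins at DNA breaks, and PARP1 and PARP2 recruit single-strand break repair. Inhibitors such as BMN hold PARP1 on DNA, and the breaks that replication then makes are repaired by homologous recombination, with BRCA1 and BRCA2. Cells with such damage can arrest in the cycle, switch on p53 targets, or leak DNA into the cytosol, where the cGAS-STING pathway can induce interferon. Interferon genes, granzymes and antigen presentation also report on the immune cells of a tumor.

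Over all genes the 2 libraries differed little. The median log2 ratio was 0.09, with 8205 genes higher in BMN and 5499 lower. At least 2-fold higher in BMN were 639 genes, 4.66% of those tested, and at least 2-fold lower were 309, 2.25%. These shares are the background for every count below. In the values as deposited, before scaling, a fragment in the Control library carried 1.28 times the weight of a fragment in the BMN library. This was read from the most frequent ratio among weak genes, at which 130 of 4204 lay. Read counts are not given, so no counting error could be computed. Small and ribosomal RNA made up 31.5% of the BMN sum and 33.7% of the Control sum.

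The labelled LLC cells came with other cells in both libraries. In Control, Ptprc, the CD45 antigen of leukocytes, had 36.6, Lyz2, a lysozyme of macrophages and neutrophils, had 571, and Col3a1, a fibroblast collagen, had 208. Of 8 lung epithelium markers, including the surfactant genes, 1 could be tested, Hopx, at 0.807 in Control and 0.658 in BMN. Both libraries thus hold leukocyte and stromal RNA, and the other lung epithelium markers were not in both tables. In bulk RNA, fewer cells of a type and less RNA per cell cannot be told apart.

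**Figure D1:**
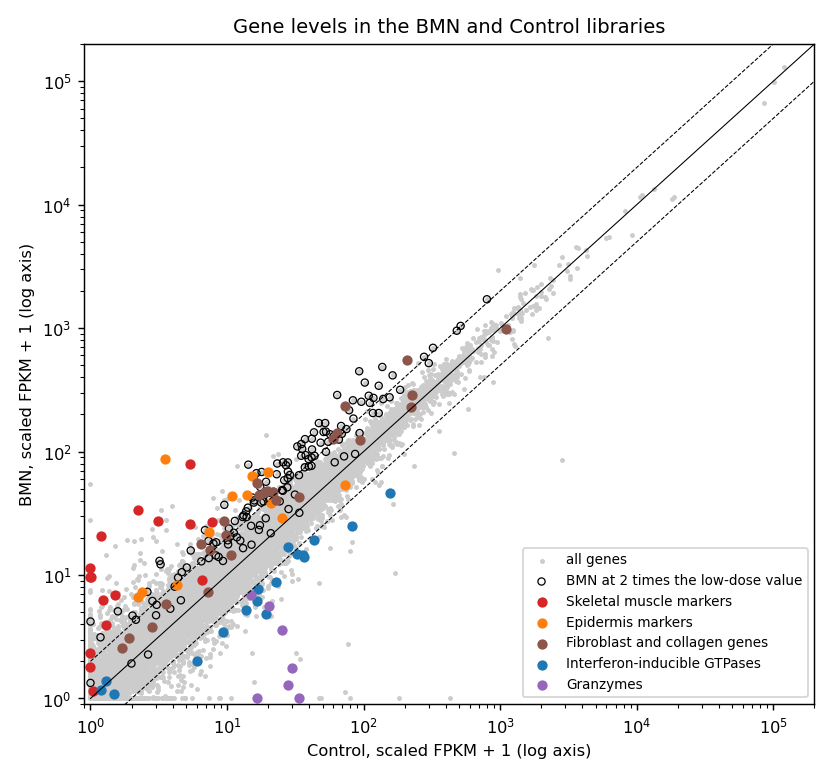
Level of each gene in the Control library (x axis) and the BMN library (y axis), in scaled FPKM + 1 on log axes, with the diagonal and the 2-fold lines. All 16 muscle genes, 11 of 12 epidermis genes and 24 of 25 collagen genes lie above the diagonal, all 7 granzymes and 16 of 17 interferon-inducible GTPases below it, and open circles mark genes whose BMN value is 2 times the value of the low-dose combination.

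The genes of the drug target were near the background. The list of 22 PARP enzymes and genes of ADP-ribose turnover had a median log2 ratio of −0.21, with 9 members higher, 13 lower, 0 at least 2-fold higher and 1 at least 2-fold lower. Parp1, the main target of BMN, had 26.4 in Control and 35.5 in BMN, a log2 ratio of 0.41. Parp2, its closest partner in break repair, had 41.2 and 18.9 and was the member past 2-fold, with a log2 ratio of −1.08. Parp2 was also lower in the other 3 libraries, at 22.9 in PAZA, the polymer that carries azacytidine, and at 13.0 and 17.8 in the combinations of BMN and PAZA at low and high dose. Its level therefore set Control apart from all 4 treated libraries, which share that Control.

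Of the other PARP genes, Parp12, an interferon-inducible member, was the highest by log2 ratio, at 3.80 in Control and 7.19 in BMN. Parp3 had 32.9 and 31.8, and Parp4 had 11.9 and 10.1. Parg, the glycohydrolase that removes ADP-ribose chains, had 61.6 and 73.3, and Hpf1, the cofactor that directs PARP1 to serine, had 88.2 and 93.2. In each of these last 4 genes the libraries lay within 1.5-fold of each other. Lower in BMN were Parp11, at 8.59 and 4.04 with a log2 ratio of −0.93, Parp16, at 4.81 and 2.76, and the macrodomain gene Macrod2, at 2.70 and 1.20.

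Genes of drug export did not stand out either. Abcb1a and Abcb1b, which encode the mouse P-glycoproteins, had 1.72 and 10.1 in Control and 1.30 and 6.94 in BMN. Abcg2, another efflux pump, had 11.9 and 16.3, and Abcc1 had 10.3 and 10.7. In the same list of 12 genes, Slfn1 and Slfn4, Schlafen genes of leukocytes, were 2-fold higher, at 9.10 and 4.57 in Control and 21.1 and 11.1 in BMN. The list's median of 0.07 lay below that of all genes and lies at −0.02 when centred on it.

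Repair genes need a caution about the deposited values. For 138 genes the BMN value was 2 times the value of the low-dose combination, within 0.05% after a constant between tables. At the 20 other multiples from 1.5 to 2.5 in steps of 0.05, between 0 and 10 genes stood as close. Of the 138, 134 also held against the low-dose column of a second table. All 29 BMN values written with more than 6 significant digits belong to these genes, whereas 0 of the 17783 Control values above 0 have more than 6. The Control column stands in 1 table only, so its values could not be compared between tables.

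**Figure D2:**
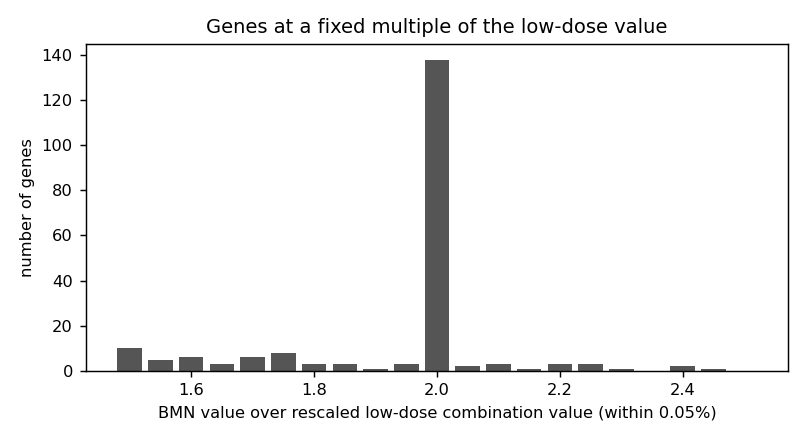
Number of genes (y axis) whose BMN value lies within 0.05% of a given multiple (x axis, steps of 0.05) of the rescaled value of the low-dose combination. The bar at 2 holds 138 genes and no other bar holds more than 10.

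The 138 genes include repair factors such as Ercc1 and Xpc, RNA polymerase subunits such as Polr2a, general transcription factors such as Gtf2b, and enzymes of nucleotide metabolism such as Impdh2. The paper reports a DNA repair gene set as lower in BMN/PAZA than in BMN alone. How many of the 138 belong to that set was not counted. By BMN level the first were Tmed2, a cargo receptor of vesicles, with 798 in Control and 1710 in BMN, and Ddb1, the damage-binding adaptor of a ubiquitin ligase, with 512 and 1040. Pcna, the sliding clamp of DNA polymerases, had 480 and 951. Alyref, an RNA export factor, had 321 and 691, Edf1, a ribosome-associated factor, had 276 and 584, and Ssrp1, a histone chaperone, had 299 and 519. All 6 pairs lie close to the 2-fold line.

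The median log2 ratio of the 138 genes was 1.14 against 0.09 for the 13566 others, and 135 were higher in BMN. At least 2-fold higher were 88, or 63.8%, which is 13.8% of all genes called higher. With their BMN values halved, the median was 0.18 and 8 were at least 2-fold higher. Against the same Control, their median was 0.03 in the low-dose combination, 0.08 in PAZA and −0.13 in the high-dose combination. Halving lowers every one of them alike and brings BMN to the low-dose value by construction, so these counts describe the marked genes and test nothing. Every list of repair genes is given below with and without them.

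Homologous recombination genes, the pathway that BMN-treated cells depend on, showed no common direction. Of 37 members of the list with the Fanconi genes, 23 were higher and 14 lower, the median was 0.12, and 3 were at least 2-fold higher. Over the 35 that were not doubled the median was 0.12 as well, and the same count of 3 was at least 2-fold higher. Brca1 had 37.7 in Control and 28.2 in BMN, and Brca2 had 16.8 and 16.3. Palb2, which joins the BRCA proteins, had 6.30 and 8.18, and Bard1, the partner of BRCA1, had 9.46 and 8.81. None of these 4 genes came near 2-fold. Rad52, which anneals DNA strands, is 1 of the 138 doubled genes.

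The 3 members past 2-fold were Gen1, Ube2t and Fancm. Gen1, a resolvase of crossed DNA strands, had 13.7 in Control and 33.1 in BMN. Ube2t, the conjugating enzyme of the Fanconi pathway, had 6.04 and 14.3, and Fancm, its translocase, had 6.53 and 15.0. With values as deposited, the log2 ratios of Ube2t and Fancm were 0.97 and 0.94, under the limit. Gen1 was 18.8 in PAZA and 9.96 and 12.7 in the low-dose and high-dose combinations, so BMN held its highest level. Ube2t was 16.8 in PAZA and 12.4 and 14.3 in the combinations, so all 4 treated libraries lay above Control. Fancm was 11.6 in PAZA and 2.97 and 6.37 in the combinations, of which the last 2 lay below Control. Atm, the kinase that signals double-strand breaks, had 26.4 and 16.7, and Atr had 28.7 and 24.6.

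Base excision and single-strand break repair had a median of 0.20 over 20 genes, and 0.15 over the 15 that were not doubled. Xrcc1, the scaffold recruited by PARP1, had 3.18 in Control and 6.30 in BMN. Lig3, the ligase it brings, had 39.3 and 45.1. Polb, Fen1, Lig1, Pcna and Mpg carried doubled values, of which Polb (26.9 and 80.6) and Fen1 (14.8 and 39.2) were past 2-fold. Without doubling, Mutyh, a glycosylase, had 1.67 and 0.14, and Neil1 was listed at 0 in Control with 1.24 in BMN.

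Nucleotide excision and mismatch repair depended on the doubled genes most. Of 21 members 10 were doubled, among them Xpc, Ddb1, Ddb2 and Ercc1 to Ercc5, and the median of 0.33 became −0.03 over the other 11. All 5 members at least 2-fold higher were doubled genes, and Ercc1, a nuclease subunit, had 2.20 in Control and 12 in BMN. The mismatch sensor Msh3 was not doubled and had 11.7 in Control and 20.8 in BMN, while Msh6 had 48.2 and 49.8.

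End joining had a median of 0.23 over 18 genes, and 0.21 over the 17 not doubled. Xrcc5 and Xrcc6, which encode the Ku proteins, had 15.6 and 52.8 in Control and 17.9 and 70.2 in BMN. Xrcc4 had 22 and 13.3, and Lig4, its ligase, had 7.83 and 10.0. Trp53bp1 and Rif1, which steer breaks to end joining, had 63.4 and 65.1 in Control and 65.4 and 60.6 in BMN. Only Poll passed 2-fold in this list, at 0.586 and 4.08, and its BMN value was doubled.

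Targets of p53 had 2 of 30 members at least 2-fold higher, 6.67%, and 0 lower, with a median of 0.17. Pmaip1, the BH3-only gene Noxa, had 1.52 in Control and 8.97 in BMN, a log2 ratio of 1.98. Perp, a desmosome gene that is also strong in skin, had 11.2 and 39.7. Cdkn1a, the p21 cell cycle inhibitor, had 5.08 and 10.3, a log2 ratio of 0.89. The canonical targets Mdm2, Ccng1 and Bax were level, at 57.1, 48.3 and 25.3 in Control and 53.5, 52.6 and 28.5 in BMN. Gadd45a, another damage-induced gene, had 46.4 and 28.5. Pmaip1 had 3.51, 3.39 and 2.74 in PAZA and the low-dose and high-dose combinations, below BMN and above Control.

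Replication genes had 9 of 36 members at least 2-fold higher, and 8 of these 9 were doubled. The median was 0.17, and 0.07 over the 27 genes that were not doubled. Mcm2, Mcm3, Mcm4 and Mcm5, subunits of the replicative helicase, had 20, 42.3, 101 and 106 in Control and 23.4, 48.8, 119 and 110 in BMN. Tyms, which makes thymidylate, had 13.3 and 77.3 and was the highest of the list, with a doubled value. Gins2, a helicase subunit that was not doubled, had 8.42 and 23. Tk1, thymidine kinase, was the lowest of the list, at 30.2 and 20.2, a log2 ratio of −0.56.

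Mitotic genes differed by little. Of 28 members 27 were higher in BMN, the median was 0.33, and 0 were past 2-fold in either direction. Mki67, the Ki-67 antigen, had 154 in Control and 207 in BMN, Top2a had 242 and 274, and Ccna2, cyclin A2, had 122 and 168. Plk1, a mitotic kinase, had the highest log2 ratio, 0.78, at 12.8 and 22.7, and Nusap1 the lowest, −0.20, at 59.1 and 51.3. In the other 3 treated libraries the list's medians were −0.08, −0.21 and −0.23 for PAZA and the low-dose and high-dose combinations, against the same Control. Of the CDK inhibitors and G1 cyclins, Cdkn1b had 78.4 and 66.1, Ccnd1, cyclin D1, had 89.6 and 121, and Cdk2 alone was past 2-fold, at 4.43 and 10.6.

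**Figure D3:**
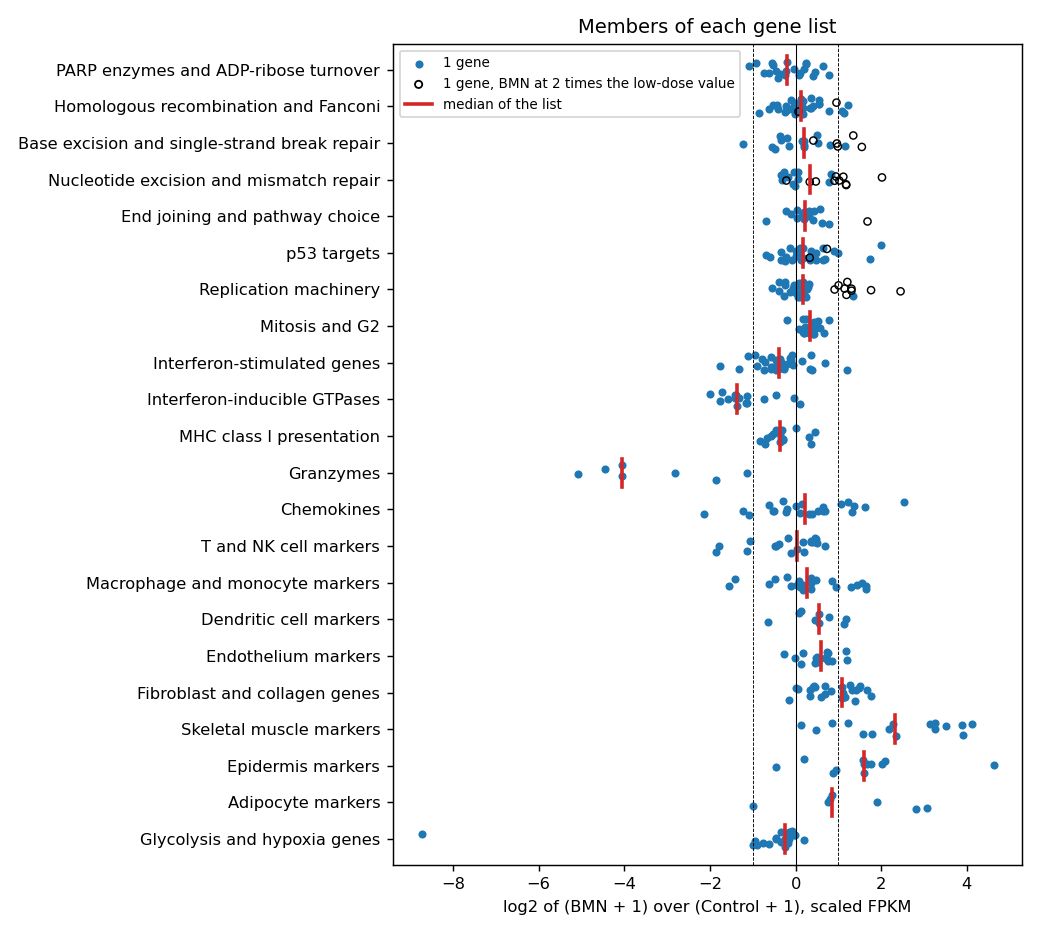
Log2 ratio of BMN to Control (x axis) for every tested member of 22 gene lists, 1 point per gene, with the list median as a red bar and dashed lines at 2-fold. Skeletal muscle, epidermis and collagen lists lie furthest to the right, granzymes and interferon-inducible GTPases furthest to the left, and open circles mark doubled BMN values.

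Interferon genes were lower in BMN. Interferons act through STAT proteins, which switch on antiviral genes, guanylate-binding proteins, MHC class I genes and chemokines such as CXCL9. Of 37 interferon-stimulated genes 31 were lower, the median was −0.39, 3 were at least 2-fold lower and 1 at least 2-fold higher, and the summed level was 1360 in Control and 973 in BMN. Against the same Control, the medians in PAZA and the low-dose and high-dose combinations were −0.73, −0.69 and −0.78 and the sums 936, 769 and 751, so BMN lay closest to Control of the 4 treated libraries. Antiviral genes that head the list lay within 2-fold. Isg15, a ubiquitin-like modifier, had 16.7 and 22, Ifit1 had 32.8 and 25.4, Ifit2 had 23 and 21.2, and Ifit3 had 12.2 and 9.36. Ifi27l2a was the member past 2-fold on the higher side, at 9.68 and 23.6.

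Further below Control were several genes that interferon gamma induces. Gbp2, a guanylate-binding GTPase of cell-autonomous defence, had 154 in Control and 44.8 in BMN, a log2 ratio of −1.76, Gbp3 had 35.0 and 13.5, and Ifi44 had 13.5 and 5.68. Among chemokines, Cxcl9, which draws T cells and is induced by interferon gamma, had 80.5 and 17.6, a log2 ratio of −2.13, while Cxcl10 had 28.3 and 22.9. Ifng itself was near 0 in both, at 0.244 and 0.599.

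A family list made after these values were seen, all interferon-inducible GTPases in both tables, had 13 of 17 members at least 2-fold lower, against 2.25% of all genes. The median was −1.37 and the sum 504 in Control and 175 in BMN. Igtp had 35.5 and 13.1, Gbp7 had 42.2 and 18.2, Iigp1 had 80.5 and 23.8, and Gbp4 had 18.3 and 3.84. In PAZA and the low-dose and high-dose combinations the sums were 243, 174 and 125, so Control was the highest of the 5 libraries. Since the list was chosen for its members' direction, its count is a description. The GTPase genes lie in clusters of similar paralogs, some of which overlap in the annotation, so reads shared among them may be split.

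The promoters of these 17 genes were read, where a window was given, for the 2 DNA elements that bind interferon factors. The windows, from RefSeq on GRCm38.p6, reach from 250 bases before to 50 after a gene's start. The ISRE, which binds IRF and STAT complexes, was searched as GAAA, any 2 bases and GAAA again, and the GAS element, which binds STAT dimers, as TTCNNNGAA, on both strands, and the 2 may overlap. The windows of 3 GTPase genes with high levels in Control are shown, 5′ to 3′, with matches in capitals.
Gbp2: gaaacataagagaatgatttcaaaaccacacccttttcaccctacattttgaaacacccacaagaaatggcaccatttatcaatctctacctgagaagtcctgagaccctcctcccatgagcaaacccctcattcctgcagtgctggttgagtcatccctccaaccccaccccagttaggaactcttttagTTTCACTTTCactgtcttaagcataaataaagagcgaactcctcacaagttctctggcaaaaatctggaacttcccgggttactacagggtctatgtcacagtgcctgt
Gbp7: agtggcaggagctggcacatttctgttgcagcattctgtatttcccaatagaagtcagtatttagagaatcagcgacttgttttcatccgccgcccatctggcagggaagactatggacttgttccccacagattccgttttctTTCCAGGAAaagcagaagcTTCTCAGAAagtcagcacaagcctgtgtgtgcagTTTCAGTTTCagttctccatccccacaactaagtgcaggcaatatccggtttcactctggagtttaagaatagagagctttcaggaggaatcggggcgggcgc
Igtp: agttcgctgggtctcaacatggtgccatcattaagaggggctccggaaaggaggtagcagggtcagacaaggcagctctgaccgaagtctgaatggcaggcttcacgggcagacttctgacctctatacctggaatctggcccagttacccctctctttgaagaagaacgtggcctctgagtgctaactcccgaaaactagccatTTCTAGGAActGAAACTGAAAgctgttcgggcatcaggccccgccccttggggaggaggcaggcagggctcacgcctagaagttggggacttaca
The Gbp2 window is chr3:142620413-142620712, the Gbp7 window chr3:142530086-142530385 and the Igtp window chr11:58199306-58199605, all on the plus strand.

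The Gbp2 window holds 1 ISRE match, at bases 192 to 201 from its 5′ end. The Gbp7 window holds an ISRE match at 198 to 207 and 2 GAS matches, at 145 to 153 and 164 to 172, and the Igtp window has both elements side by side, at 206 to 214 and 217 to 226. Of the 10 GTPase genes with a window, 10 held the ISRE letters and 6 the GAS letters, whereas 3.95% and 8.36% of the 10579 tested genes with a window did. Of the 8 that were also at least 2-fold lower, 8 held the ISRE letters and 6 the GAS letters. The family is defined by induction through interferon and was chosen after its direction was seen, so these shares test nothing about BMN. Of the interferon-stimulated list, 16 of 27 genes with a window held the ISRE letters and 6 the GAS letters. Of the 7 granzymes, described next, 1 held the ISRE letters and 1 the GAS letters. The Cxcl9 window held neither. A match describes the letters of a window and not a bound site.

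Granzymes, the proteases of cytotoxic lymphocytes, were lower in BMN in every member. All 7 were at least 2-fold lower, with a summed level of 161 in Control and 14.0 in BMN. Gzmb had 19.2 and 4.59, and Gzma had 14.0 and 5.83. Gzmc had 24.2 and 2.57, Gzmd had 28.8 and 0.781, and Gzmf had 26.8 and 0.276. Gzmg and Gzme, at 32.7 and 15.7 in Control, were listed at 0 in BMN. The list was made after the values were seen. In PAZA and the low-dose and high-dose combinations the sums were 35.7, 25.9 and 29.7, so the family was highest in Control and lowest in BMN.

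Gzmd, Gzme, Gzmf and Gzmg lie in 1 cluster on chromosome 14 of GRCm38, with Gzme from 56117626 to 56120625 and Gzmf from 56205263 to 56211417. They are close copies, so how their reads were divided among them is uncertain. Prf1, the pore that delivers granzymes, had 6.47 in Control and 1.17 in BMN. Markers of the lymphocytes themselves had no common direction. Cd3e had 1.98 and 1.65, Cd3d was listed at 0 in Control with 0.287 in BMN, Cd3g had 4.27 and 1.53, Cd4 had 0.515 and 0.992, Cd8a had 0.990 and 0.520, and Ncr1, of natural killer cells, had 2.15 and 2.25. Of 19 T and NK cell markers 4 were at least 2-fold lower, namely Gzma, Gzmb, Prf1 and Cd3g, and 0 higher. Foxp3, of regulatory T cells, had the highest log2 ratio, 0.69, at 0.246 and 1.01. The median was 0.04, or −0.05 when centred on all genes.

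**Figure D4:**
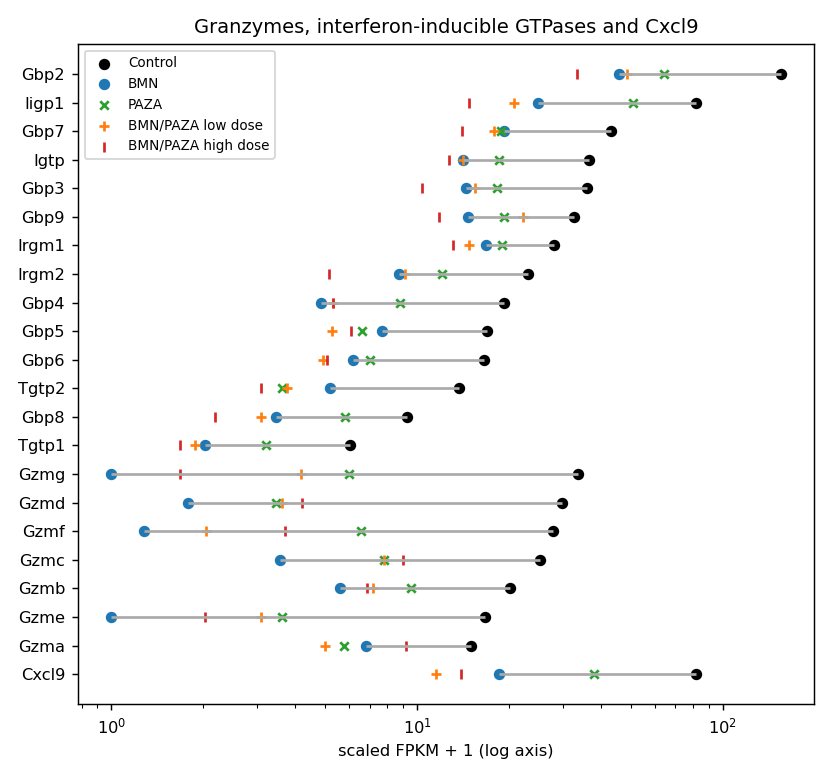
Level of interferon-inducible GTPases, granzymes and Cxcl9 with a mean of at least 1 in Control and BMN, in scaled FPKM + 1 on a log axis, with 1 point per library. The Control point lies to the right of the BMN point for every gene shown, and the PAZA and combination libraries lie below Control too.

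MHC class I genes, which present peptides to CD8 T cells, were lower as a group but within 2-fold. Of 17 members 13 were lower, with a median of −0.36 and a sum of 24600 in Control and 17600 in BMN. B2m, the shared light chain, had 18700 and 11500, H2-K1 had 1280 and 719, and H2-D1 had 406 and 293. Nlrc5, the transactivator of the pathway, had 64.6 and 40.2, and Tap1, the peptide transporter, had 18.6 and 15.0. The 3 chaperone genes of the list, Calr, Canx and Pdia3, were higher, at 1390, 1400 and 761 in Control and 1890, 1790 and 944 in BMN.

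MHC class II genes, of antigen-presenting cells, were level. H2-Ab1 had 118 in Control and 122 in BMN, H2-Aa had 22.5 and 28.5, H2-Eb1 had 25.1 and 24.9, and Cd74 had 38.8 and 40.4. H2-DMa, which loads peptides, was the member past 2-fold, at 3.73 and 10.7. Of 15 checkpoint genes, Cd274, the PD-L1 ligand that interferon gamma induces, was at least 2-fold lower, at 20.4 and 8.11, a log2 ratio of −1.23. In PAZA and the low-dose and high-dose combinations Cd274 had 11.9, 10.4 and 8.78. Pdcd1lg2 and Pdcd1 were under 1 in both libraries. Ctla4 had 2.01 and 4.36, the highest ratio of the list.

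Genes that sense cytosolic DNA stayed within 2-fold. The list's 15 members had a median of 0.14. Cgas, the sensor, had 2.80 in Control and 5.11 in BMN, and Tmem173, which encodes STING, had 12.8 and 10.8. Tbk1, the kinase below it, had 95.4 and 111, and Irf3, its target, had 8.82 and 8.35. Trex1, a nuclease that clears cytosolic DNA, was the lowest, at 9.21 and 5.16, with a log2 ratio of −0.73.

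Chemokines split in both directions, with 6 of 24 at least 2-fold higher and 3 lower and a median of 0.23. Beside Cxcl9, Ccl8 and Ccl5 were lower, at 70.8 and 4.74 in Control and 29.9 and 1.69 in BMN. Cxcl5, which draws neutrophils, had the highest ratio, at 1.08 and 11.1. Cxcl12 and Cxcl14, made by stroma and epithelium, had 4.88 and 1.37 in Control and 13.7 and 6.31 in BMN. Ccl17 and Ccl11 were higher as well, at 2.99 and 2.23 in Control and 8.30 and 5.67 in BMN, and Ccl24 was listed at 0 in Control with 1.57 in BMN. Ccl2, which draws monocytes, had 264 and 182.

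Macrophage and monocyte markers had 5 of 22 members at least 2-fold higher and 2 lower, with a median of 0.27. The members higher in BMN were Ly6c2 and Ccr2, of inflammatory monocytes, with 10.5 and 31.2 in Control and 32.8 and 85.5 in BMN, Adgre1 (F4/80) with 11 and 28.6, Cd163 with 3.75 and 13.8, and Chil3 with 1.85 and 7.88. The members lower were Nos2, the inducible nitric oxide synthase, with 22.8 and 7.08, and Gpnmb with 35.6 and 12.8. Cd68 and Csf1r, which mark macrophages at large, were level, at 49.1 and 16.5 in Control and 55.9 and 18 in BMN. Spp1, the highest member, had 6260 and 5450.

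Matrix metalloproteinases and their inhibitors split, with 3 of 11 members at least 2-fold higher, 2 lower and a median of 0.46. Mmp12, a macrophage elastase, and Mmp13, a collagenase, were lower, at 233 and 56.0 in Control and 75.8 and 15.5 in BMN. Mmp2, a gelatinase, Mmp3 and Mmp19 were higher, at 7.87, 8.22 and 6.17 in Control and 20.1, 17.5 and 13.6 in BMN, the last pair of genes close to the limit. Timp2, the inhibitor with the highest level, had 305 and 290.

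Other leukocyte lists held few called genes. Of 7 leukocyte markers Itgb2 was past 2-fold, at 28.6 in Control and 60.9 in BMN, and Ptprc had 36.6 and 46.0. Of the neutrophil genes, S100a8 and S100a9 had 35.8 and 30.8 in Control and 31.5 and 24.4 in BMN, and 0 of 7 passed 2-fold. Il1b, the highest of that list by log2 ratio, had 28.7 and 49.8. Dendritic cell markers were low throughout, with sums of 5.79 and 10.7 over 9 genes, and Ccr7 and Cd209a were past 2-fold, the first from a Control value listed at 0 to 1.26. Of 4 B cell genes Cd79a had 1.97 in Control and was listed at 0 in BMN. Of the red blood cell genes, 2 could be tested, and Alas2 had 2.74 and 0.646.

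Most markers of muscle and skin were higher in BMN. A subcutaneous tumor borders on skin, fat and the muscle layer below it. Skeletal muscle markers had 13 of 16 members at least 2-fold higher, against 4.66% of all genes, and the sum was 25.6 in Control and 259 in BMN. Tnnt3, a fast troponin, had 4.33 and 77.8, Myh4, a fast myosin, had 1.23 and 32.3, and Acta1, skeletal actin, had 0.199 and 19.8. Ckm, the muscle creatine kinase, had 0.00732 and 8.61, and Myl1 and Mb were listed at 0 in Control with 10.4 and 8.55 in BMN. The sums were 92.5, 27.3 and 315 in PAZA and the low-dose and high-dose combinations, so the libraries differed widely from one another.

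Epidermis markers had 8 of 12 members at least 2-fold higher, with a median of 1.60 and a sum of 187 in Control and 461 in BMN. Flg, the filaggrin of the outer skin, had 2.52 and 86.1, a log2 ratio of 4.63. The basal keratins Krt5 and Krt14 had 19.1 and 14.1 in Control and 67.3 and 62.9 in BMN, and Krt1 had 9.89 and 42.8. Trp63, the transcription factor of stratified epithelium, had 1.39 and 6.24. Sbsn alone was lower, at 72.0 and 52.4. In the other 3 libraries Krt5 was between 0 and 2.53 and Krt14 between 0.511 and 1.59, below both Control and BMN. Cdh1 and Epcam, general epithelial genes, were past 2-fold too, at 1.83 and 0.642 in Control and 5.14 and 3.30 in BMN.

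Of 7 adipocyte markers 6 were higher and 1 lower, and 3 were at least 2-fold higher. Cfd, adipsin, had 1.35 in Control and 18.7 in BMN, Car3 had 1.88 and 19.3, and Pparg had 0.676 and 5.25. Fabp4 had 42.8 and 73.0, and Adipoq was listed at 0 in Control with 0.739 in BMN. Cidec, a lipid droplet gene, was the lower member, at 1.66 and 0.335, a log2 ratio of −0.99. The list's sum was 52.1 and 125.

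Fibroblast and collagen genes had 13 of 25 members at least 2-fold higher and 0 lower, with a median of 1.08 and a sum of 2230 in Control and 3100 in BMN. Col1a1 and Col1a2, the chains of type I collagen, had 15.5 and 16.1 in Control and 54.7 and 43.5 in BMN, and Col3a1 had 208 and 552. Postn, periostin, had 72.3 and 232. Col4a1, a basement membrane collagen, had 220 and 230, and Fn1, fibronectin, had 1100 and 981. Acta2, of myofibroblasts, had 6.2 and 6.30. Col1a1 was at 18.1 in PAZA and at 14.5 and 26.0 in the low-dose and high-dose combinations, so BMN held the highest level.

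Endothelium markers had a median of 0.60 over 16 genes, with 14 higher and 2 at least 2-fold higher. Pecam1, CD31, had 18.7 in Control and 25.8 in BMN, Cdh5, VE-cadherin, had 5.67 and 14.1, Kdr had 1.97 and 4.06, and Flt1 had 6.90 and 6.78. Most muscle, skin, fat and collagen genes were higher in the BMN library, in which interferon genes and granzymes were lower. In PAZA and the low-dose and high-dose combinations muscle sums were 92.5, 27.3 and 315 and epidermis sums 102, 109 and 114. In the same order, collagen sums were 2320, 2280 and 2030, granzyme sums 35.7, 25.9 and 29.7, and GTPase sums 243, 174 and 125. The part of tissue content in the differences of the other lists was not tested.

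**Figure D5:**
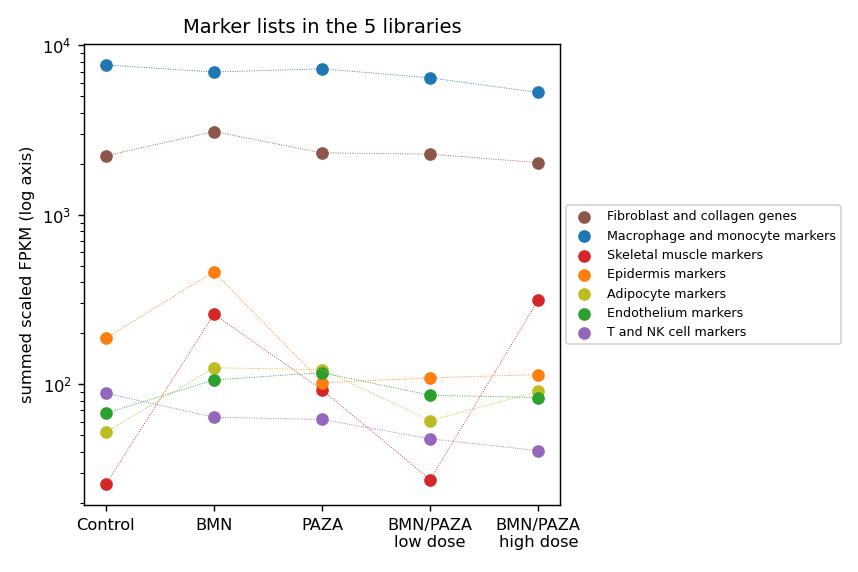
Summed scaled FPKM of 7 marker lists (y axis, log scale) in each of the 5 libraries (x axis), 1 point per list and library. Muscle markers are at 259 in BMN and 315 in the high-dose combination but at 25.6 in Control, and epidermis markers are highest in BMN, at 461.

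Genes of glycolysis and hypoxia were lower in 24 of 25 members, a count that includes Aldoa, with a median of −0.25. Vegfa, the angiogenic factor induced by hypoxia, had 65.9 in Control and 32.4 in BMN, Bnip3 had 115 and 59.4, and Ndrg1 had 150 and 88.0. Slc2a1, the GLUT1 transporter, had 39.8 and 28.6, Hk1 had 175 and 164, Hk2 had 44.1 and 23.1, and Ldha had 438 and 376. Car9, a hypoxia marker, was listed at 0 in Control with 0.139 in BMN. Past the limit on the lower side were Vegfa, with a log2 ratio of −1.001, and Aldoa, whose BMN value is not comparable as described next.

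Aldoa, aldolase A, had 425 in Control and was listed at 0 in BMN. The low-dose library was at 0 as well in the table it shares with BMN, but at 290 FPKM in both other tables after the constant between tables. The same held for 9 symbols, whose low-dose value in the table shared with BMN was under 10% of that in the other tables, among them Atp5o, Pakap, Rmrp, Zfp91 and Ddit3. Of these 9, 7 are names of 2 genes in the annotation, as are 24 of all tested symbols. Their BMN values are therefore given as listed and not as a difference between groups. Ddit3, the CHOP factor, had 7.83 in Control and was listed at 0 in BMN.

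Stress pathways otherwise held no gene past the 2-fold limit with 1 added. The list of 17 integrated stress and unfolded protein genes had a median of 0.27. Atf3 had 97.1 in Control and 55.4 in BMN, Atf4 had 91.0 and 97.5, Trib3 had 3.27 and 6.27 and Asns, asparagine synthetase, had 88.9 and 120. Of the heat shock genes, Hspa1a and Hspa1b had 0.722 and 3.64 in Control and 1.49 and 3.48 in BMN. Among NRF2 antioxidant genes, Gstm1 had 1.16 and 3.31, Nqo1 had 1.65 and 0.600, and Hmox1, heme oxygenase, had 17.7 and 14.2. In these last lists 0 of 10 and 0 of 12 genes passed 2-fold with 1 added. With 0.1 added, the log2 ratios of Gstm1 and Nqo1 were 1.44 and −1.32, past the limit.

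In the RAS-MAPK list 17 of 19 genes were higher, with a median of 0.33, and 1 was past 2-fold. Egr1, an immediate-early gene, had 3.26 in Control and 9.08 in BMN, and Fos had 12.4 and 24.3. Of the feedback phosphatases, Dusp6 had 65.1 and 84.9, Dusp5 had 3.51 and 3.61 and Dusp4 had 92.5 and 58.4.

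Apoptosis genes of the BCL2 family had 1 of 11 members past 2-fold, Bmf, a BH3-only gene, at 2.76 in Control and 0.502 in BMN. Bcl2 had 10.2 and 9.56, Bcl2l1 had 30.7 and 30.3, and Mcl1 had 157 and 138. Genes of DNA methylation had 0 of 13 past 2-fold. Dnmt1, the maintenance methyltransferase, had 155 and 150, Dnmt3a had 9.18 and 12.3 and Uhrf1, a guide of DNMT1, had 81.2 and 97.5. Mbd3, a subunit of a chromatin repressor complex, was the lowest, at 21.8 and 12.5. Of 8 germline genes that methylation can silence, 3 were higher and 5 lower, and Tdrkh alone passed 2-fold. Tdrkh had 2.49 and 0.0378, and Tdrd9 and Piwil4 had 3.35 and 3.12 in Control and 1.91 and 1.5 in BMN. Sycp3, of the meiotic chromosome axis, went the other way, at 0.671 and 2.11, and Tdrd5 was listed at 0 in Control with 0.333 in BMN.

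Mitochondrially encoded genes had a median of −0.001. The strongest, mt-Co1 and mt-Nd1, had 13400 and 10500 in Control and 13400 and 11500 in BMN. Cytosolic ribosomal protein genes were lower in 72 of 81 cases, with a median of −0.20 and a sum of 63600 in Control and 54500 in BMN. Histone genes of the replication-dependent clusters had 7 of 48 at least 2-fold higher and 2 lower under their current names, and their total was 2050 and 2650. Histones share sequence, so their reads are uncertain. Of 14 epithelial and mesenchymal genes 7 were higher and 7 lower. Vim, the mesenchymal filament, had 2420 and 2450, and Krt19, an epithelial keratin, was the lowest, at 47.1 and 27.4.

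Among all genes with a mean of at least 5, the 12 highest log2 ratios outside the doubled genes included 5 muscle and 2 keratinocyte genes. Beside Acta1, Myh4, Tnnt3, Myl1 and Flg, these were Trdn, the triadin of muscle, with 0.288 in Control and 13.5 in BMN, Krt79, a keratin of hair follicle and gland ducts, with 0.524 and 16.1, and Cstdc5, with 2.28 and 32.9. Hp, haptoglobin, had 0.862 and 18.2. Csf2rb, the receptor subunit shared by GM-CSF, IL-3 and IL-5, had 2.94 and 35.2, and its levels in PAZA and the low-dose and high-dose combinations were 5.36, 11.4 and 3.01. The other 2 were small RNAs, Snora30 and Rnu5g, listed at 0 in Control with 26.8 and 53.1 in BMN.

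The 12 lowest were 4 granzymes, 5 of the symbols near 0 in the shared table, and Snord22, Snora3 and Snora64. Snord22, on chromosome 19 from 8725866 to 8725991, had 180 in Control and was listed at 0 in BMN, with 165, 98.1 and 119 in PAZA and the low-dose and high-dose combinations. Snora3 had 78.0 in Control and was at 0 in BMN, PAZA and the high-dose combination. Of 32 small nuclear and nucleolar RNAs 10 were at least 2-fold lower and 5 higher. Values of 0 are given as listed, since read counts are not known.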

How the data were processed

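RNA-seq of 5 groups with 1 library each was used, of which Control and BMN were compared. Per the submitters' processing notes, reads were aligned with HISAT2 and assembled with StringTie on GRCm38, with no versions given. The deposited values are not named in the files and were read as FPKM, which the authors computed per gene and which keep no read counts, so the depth is unknown. The 5 deposited tables each pair 2 groups and none pairs BMN with Control, so a difference between tables and a difference between groups cannot be told apart.

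Symbols in both tables were joined, with the row of the highest mean kept for a repeated symbol, and each column was scaled to sum to 1000000. Ratios are log2 with 1 added, and 2-fold was the limit for a call, with no test. BMN values within 0.05% of 2 times the rescaled low-dose value were marked. The scaling and the marking were tested on simulated data, using Python 3.11.15, numpy 2.4.6, pandas 2.3.3 and matplotlib 3.10.9. For each list the highest and the lowest member with a mean of at least 1 and the first 4 members were named, as were the 12 highest and 12 lowest of all genes with a mean of at least 5 and the 6 strongest doubled genes. Other members named, 4 lists (granzymes, interferon-inducible GTPases, histones under current names, small RNAs) and 3 of the alternatives were chosen after seeing the data. The members and the 42 lists were chosen with earlier results of these data known. Levels in the other 3 groups come from tables scaled separately. Alternatives covered the scaling, the added value, a filter on low values, the other BMN table, the doubled genes, repeated symbols and the fold limit. Some genes that the naming rule covers are not reported here.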

Additional observations from a re-analysis of the deposited data

Results flagged for a closer look

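Epidermis markers stood on opposite sides of Control in the libraries of the single agents. Their median log2 ratio to Control was 1.601 in BMN and −1.754 in PAZA, and the 2 comparisons share the Control library. The difference was not tested, since each group is 1 library.

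In the BMN table, 2176 symbols had no row in the Control table and so took no part in the comparison. Of these, 1678 were listed at 0 in BMN and 11 had at least 1 FPKM as deposited. The strongest were small RNAs, AF357399 at 52.3 FPKM, n-R5s151 at 47.0, Snora75 at 15.9 and Snora34 at 10.1. The others included Hba-a1, an alpha globin of red blood cells, at 3.92, Stard10, a lipid transfer gene, at 1.28, and Maob, a monoamine oxidase, at 1.06.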

How the results depend on the processing

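The count of genes at least 2-fold higher in BMN was 639 and that of genes lower 309. With values as deposited, without scaling, 354 were higher and 227 lower, and Ddb1, Ube2t, Fancm, Mutyh, Neil1, Slfn4, Cdk2, Bmf, Ccl5, Ccl11, Ccl24, Itgb2, Cd3g, Cd209a, Ccr7, Erg, Mmp3, Mmp19, Alas2 and Cdh1 no longer passed 2-fold. With 0.1 added in place of 1, the counts were 1638 and 889, and at a 4-fold limit they were 78 and 40. Against the other table that holds BMN, read over its 18927 genes with any value, 841 were higher and 656 lower. The BMN values are equal in both for 16155 symbols, so these counts differ through the added genes and the scaling over them. Centred on the median of all genes, 531 were higher and 391 lower, so the share of higher calls depends on the centre. The other settings kept both counts within 1.5 times. Of 459 list medians under alternatives, 429 held, 30 moved and 0 changed sign among called lists. Medians near 0 (efflux, mesenchymal state, MHC class II, DNA methylation, T and NK cells) took either sign with the scaling. No paired analysis was possible because each group has 1 library, and no replicate could be left out. Without read counts or replicates, the counting error and the spread between tumors are unknown.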
